A study of Mus musculus with 20 samples.

Results

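The polyamine synthesis and breakdown enzymes are 9 genes, Odc1, Srm, Sms, Sat1, Smox, Paox, Oaz1, Oaz2 and Azin1, of which 7 are among the 18193 genes with a probe set of their own on the arrays. They were chosen by name, as the core enzymes of the pathway and their protein regulators, and every probe set that the platform annotation assigns to 1 of them alone was taken. This gave 14 probe sets for 7 of the genes. Sms, the spermine synthase gene, has 3 probe sets that also list another gene, and Paox, an oxidase of acetylated polyamines, has none in the annotation used. The expression of these genes is therefore not analysed here, and only their promoter windows are read below. Of the 14 probe sets, 13 passed the filter on low values and were tested.

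Putrescine, spermidine and spermine are small, positively charged molecules that bind nucleic acids and are needed for growth and translation. Ornithine decarboxylase makes putrescine from ornithine, and the aminopropyl transferases Srm and Sms extend it to spermidine and spermine. Sat1 acetylates spermidine and spermine for export or breakdown, and Smox oxidises spermine back to spermidine. Antizymes bind ornithine decarboxylase and send it to the proteasome, and the antizyme inhibitor Azin1, an inactive relative of the enzyme, binds antizyme in its place. In skeletal muscle this pathway is known to respond to androgens and to growth or wasting of the muscle.

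RNA was measured in gastrocnemius, a calf muscle, of mice injected into the peritoneum with JA16, a monoclonal antibody that binds myostatin, or with saline as control. JA16 was given on day 1 at 0.12 mg per g body weight and on day 3 at 0.09 mg per g, and muscle was taken on day 5. There were 10 JA16 and 10 saline samples, numbered 1 to 10 in each group. No genotype, strain, sex or age is given in the labels, nor whether each sample is its own mouse, and p-values measure the spread between these samples, which may be partly technical. The values are MAS5 intensities on Affymetrix mouse arrays, compared below as log2 of JA16 over saline within same-numbered pairs. Levels of different probe sets are not comparable, because each has its own probes.

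The tissue label was checked first. All 8 skeletal muscle markers fixed for this purpose (Acta1, Ckm, Myh4, Myh1, Mylpf, Tnnt3, Tnni2, Pvalb) were measured, with summed intensities between 149204 and 188022 in saline and between 150723 and 219839 in JA16 samples, and no value below 9796 at the brightest probe set of each gene, which the sums use. Array medians ran from 38.9 to 77.1, the highest in saline replicate 7. Arrays of replicates 1 to 6 and of replicates 7 to 10 formed separate sets by the log2 ratio of 3' to 5' beta-actin control signal, at 1.33 to 1.84 and 0.48 to 0.64, and each set held both groups. The mean within-pair difference in this ratio, JA16 minus saline, was -0.13, with 8 of 10 pairs below 0 (p = 0.0645, exact sign-flip test, two-sided). Over all 19466 probe sets tested with limma and the replicate number as a block, 45 passed an adjusted p of 0.05, 25 higher and 20 lower in JA16, with a median log2 fold change of -0.029. The split was 27 higher and 13 lower with quantile normalization and 3 and 8 with array medians centred, and without the block 2 probe sets (0.0103%) passed, both lower.

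None of the 13 polyamine probe sets passed that threshold, so 0 of 13 were called where 0.231% of all probe sets were. With an unadjusted p below 0.05 there were 5 of the 13, all higher in JA16 (3 of Odc1, 1 of Smox and 1 of Azin1), beside 15.9% of all probe sets, of which 6.65% were higher and 9.29% lower. Without the block 4 had such a p, again all higher, beside 2.34% of all (1.03% higher and 1.31% lower). In at least 8 of 10 pairs 7 of the 13 were higher, beside 9.65% of all, and in at least 9 pairs 1 was, beside 3.1%. Mean values were higher in JA16 for 11 of the 13 (10 with quantile normalization, 12 with medians centred) and for 43.5% of all probe sets. The median log2 fold change of the 13 was 0.23. These counts are descriptions, since the genes were chosen with earlier results of these data known and probe sets of 1 gene share its transcripts. In whole muscle, fewer cells of a type and less RNA per cell cannot be told apart.

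**Figure D1:**
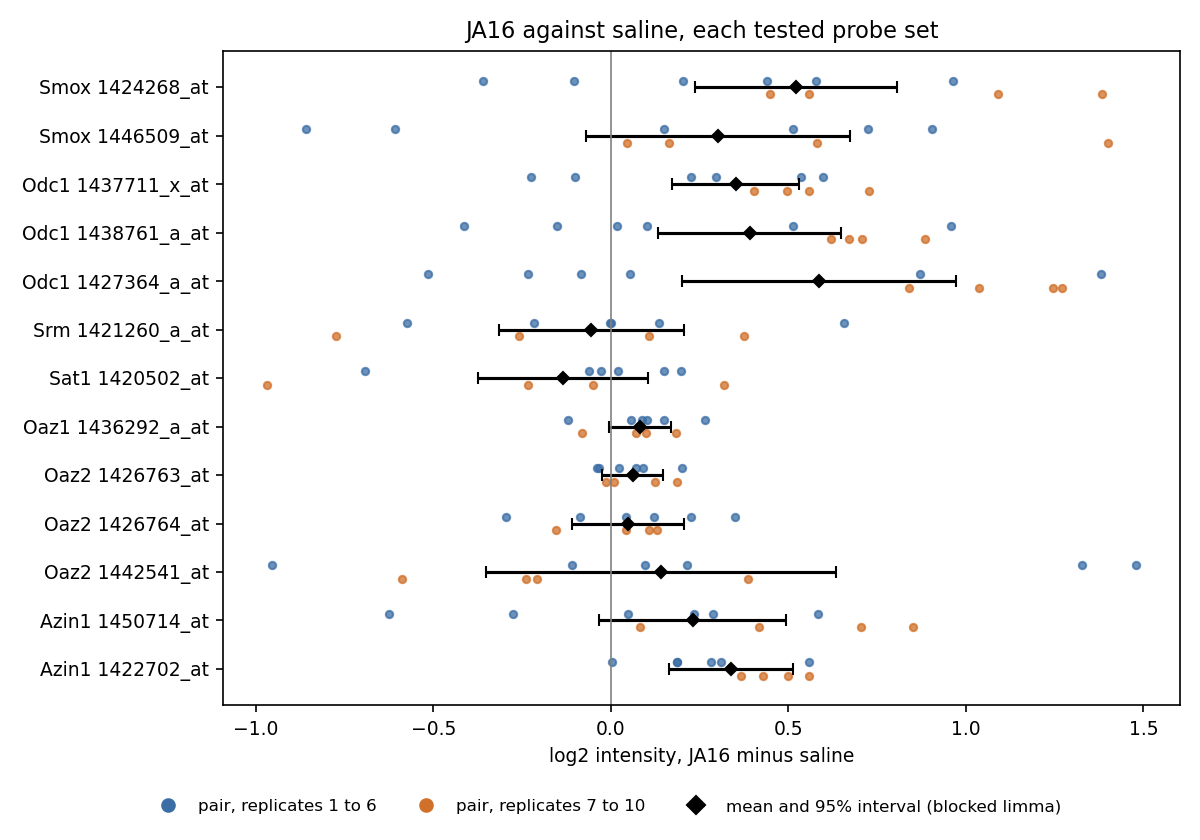
Log2 intensity of JA16 minus saline (horizontal axis) for each of the 13 tested probe sets, with 1 point per pair, coloured by array set, and the mean with its 95% interval from the blocked limma fit as a black diamond and bar. The intervals of Odc1, of Smox 1424268_at and of Azin1 1422702_at lie above 0, and those of Srm, Sat1, Oaz1 and Oaz2 include 0.

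Odc1 encodes ornithine decarboxylase, the first and rate-limiting enzyme of the pathway. Its brightest probe set, 1437711_x_at, had intensities from 4631 to 7886 (median 5783) in saline and from 6433 to 9819 (median 7176) in JA16 samples. The groups overlapped, with 7 of 10 saline samples below the lowest JA16 sample and 2 JA16 samples above the highest saline one. Means were 5949 ± 1049 (SD, n = 10) and 7559 ± 1154 (SD, n = 10). The log2 fold change was 0.35 (SE 0.084, 95% interval 0.17 to 0.53), a 1.28-fold higher level, with limma adjusted p = 0.116 and 8 of 10 pairs higher. Leaving out pair 2, which had the lowest difference at -0.22, gave 0.42 (SE 0.074) and limma adjusted p = 0.0345. Leaving out any other pair gave 0.31 to 0.40 and limma adjusted p from 0.0522 to 0.286, and with the beta-actin ratio as a covariate the limma adjusted p was 0.457. The fit without pair 2 gave the single call of a polyamine probe set in any of the settings tried. The suffix x on these arrays marks sets that may hold probes matching other sequences.

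The other Odc1 probe sets varied together with it. For 1438761_a_at, intensities ran from 3696 to 6156 (median 4373) in saline and from 4009 to 8206 (median 6100) in JA16 samples, and 5 JA16 samples lay above every saline sample. Its log2 fold change was 0.39, with an SE of 0.12 and a limma adjusted p of 0.183. The third, 1427364_a_at, ran from 487 to 2074 (median 837) in saline and from 710 to 2885 (median 1341) in JA16 samples, at 0.59 on the log2 scale (SE 0.18, adjusted p = 0.183 in limma) and 7 of 10 pairs higher. Within-pair differences of the 3 probe sets correlated at 0.93 to 0.98 over the 10 pairs, which share arrays and transcripts. In pairs 1 and 2 all 3 were lower in JA16.

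Smox encodes spermine oxidase, which shortens spermine to spermidine and releases hydrogen peroxide. For probe set 1424268_at, saline samples ran from 4579 to 12066.5 (median 7032) and JA16 samples from 6557 to 13793 (median 10714). Here 4 saline samples lay below every JA16 sample and 2 JA16 samples lay above every saline sample. Means were 7629 ± 2541 and 10604 ± 1991 (SD, n = 10 each). The log2 fold change was 0.52 (SE 0.13, 95% interval 0.24 to 0.80), a 1.43-fold higher level, with limma adjusted p = 0.14 and 8 of 10 pairs higher. Pair differences spanned -0.36 in pair 2 to 1.38 in pair 8, and pair 5 was also lower in JA16, at -0.10.

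The other Smox probe set, 1446509_at, was dimmer and less clear. Its intensities ran from 618 to 1573 (median 1024) in saline and from 586 to 2009 (median 1288) in JA16 samples, so the ranges nearly coincided, although 4 JA16 samples lay above every saline one. The log2 fold change was 0.30 (SE 0.18, 95% interval -0.071 to 0.67, limma adjusted p = 0.399), with the same pairs, 2 and 5, lower in JA16. Leaving out 1 pair moved it between 0.18 (without pair 7) and 0.43 (without pair 2). Within-pair differences of the 2 Smox probe sets correlated at 0.73 over 10 pairs.

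**Figure D2:**
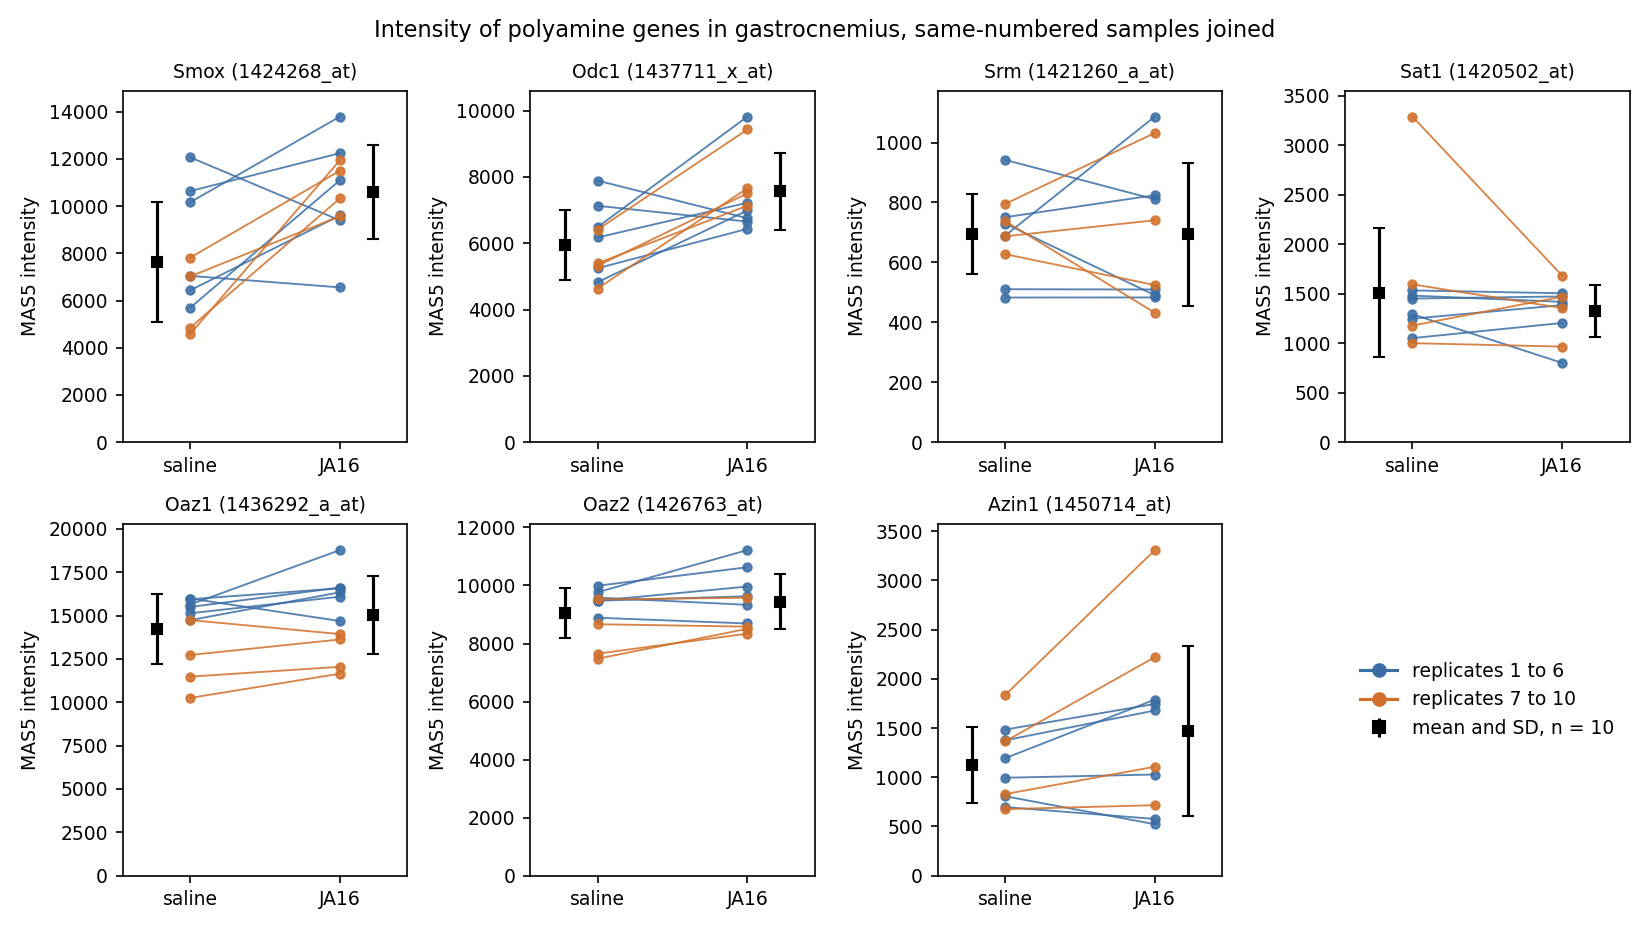
MAS5 intensity (vertical axes, from 0) of the brightest probe set of each measured gene in saline and JA16 samples, with same-numbered samples joined, coloured by array set, and the mean and SD of each group (n = 10) as black squares and bars. Smox and Odc1 lines go up in 8 of 10 pairs, those of Sat1 in 4 and of Srm in 5, and saline replicate 7 stands apart for Sat1 at 3290.

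Azin1 encodes antizyme inhibitor 1, which frees ornithine decarboxylase from antizyme. Its probe set 1422702_at had intensities from 272 to 693 (median 462) in saline and from 385 to 1019 (median 584) in JA16 samples, with nearly complete overlap. Within pairs it was higher in JA16 in 10 of 10, by 0.0027 to 0.56, and 0.509% of all probe sets were higher in every pair. The log2 fold change was 0.34 (SE 0.082, 95% interval 0.16 to 0.51, limma adjusted p = 0.122), and the SE without the block was 0.16.

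A brighter Azin1 probe set, 1450714_at, which was designed from the same expressed sequence, ran from 676 to 1833 (median 1093.5) in saline and from 523 to 3308 (median 1392.5) in JA16 samples. It differed by 0.23 on the log2 scale (SE 0.12, limma adjusted p = 0.366), higher in 8 of 10 pairs and lower in pairs 1 and 2. Replicate 7 gave the highest Azin1 value of both groups on both probe sets. The third Azin1 probe set, 1430984_at, averaged 25.4 ± 8.72 in saline samples and 26.9 ± 14.3 in JA16 samples (SD, n = 10 each), below the filter, and was not tested.

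The antizymes Oaz1 and Oaz2 bind ornithine decarboxylase and are themselves induced by polyamines through ribosomal frameshifting. Within-pair differences of Oaz1 1436292_a_at and Oaz2 1426763_at had the smallest SDs of the 13 probe sets, 0.115 and 0.0872, and those of the dim Oaz2 1442541_at the largest, 0.769. Oaz1 (1436292_a_at) ran from 10247 to 15980 (median 14933) in saline and from 11649 to 18775 (median 15385) in JA16 samples. Above every saline sample lay 5 JA16 samples, those of replicates 2 to 6, all in the array set with higher Oaz1 levels. The log2 fold change of Oaz1 was 0.081 (SE 0.041, 95% interval -0.0064 to 0.17, limma adjusted p = 0.345), and 0.0091 (SE 0.027) with quantile normalization. Oaz2 (1426763_at) ran from 7477 to 9991 (median 9476) and from 8341 to 11221 (median 9456), at a log2 difference of 0.062 (SE 0.040, 95% interval -0.024 to 0.15, limma adjusted p = 0.451) that was -0.0062 with quantile normalization. The upper limits of these intervals correspond to differences smaller than the estimates for Odc1 or Smox, which have intervals of their own. Whether the antizymes differed from Odc1 or Smox in their change was not tested. The other Oaz2 probe sets were at 0.048 (SE 0.074) for 1426764_at and 0.14 (SE 0.23) for the dim 1442541_at, with limma adjusted p = 0.78 and 0.794.

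Srm, spermidine synthase, and Sat1, the acetyltransferase that starts polyamine export and breakdown, had slightly lower means in JA16. Srm (1421260_a_at) ran from 483 to 942 (median 709) in saline and from 432 to 1087 (median 632.5) in JA16 samples. The mean log2 difference was -0.055 (SE 0.12, 95% interval -0.31 to 0.20, limma adjusted p = 0.857), with 5 pairs higher and 5 lower. With medians centred it was at 0.014. Sat1 (1420502_at) ran from 1000.2 to 3290 (median 1372) and from 800.3 to 1681 (median 1402). Its log2 fold change was -0.13 (SE 0.11, 95% interval -0.37 to 0.11, limma adjusted p = 0.562), and it ranged from -0.19 to -0.042 with 1 pair left out. The value was -0.042 without pair 7, whose saline sample was the highest of all, -0.073 without pair 2, and -0.30 (SE 0.12, limma adjusted p = 0.498) with the beta-actin ratio as a covariate.

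Relatives in the pathway were compared with each other over the 10 pairs. Azin1 is an inactive relative of Odc1, and the within-pair difference of Odc1 exceeded that of Azin1 by 0.12 ± 0.30 (SD, 10 pairs), with 6 pairs above 0 (p = 0.207 by the exact sign-flip test, two-sided, and 0.414 adjusted over the 2 contrasts). With the other tested Azin1 probe set, chosen after the values were seen, the difference was 0.013. Oaz1 exceeded Oaz2 by 0.019 ± 0.088 (SD, 10 pairs), with 5 pairs above 0 (p = 0.51 by the same exact test, and 0.51 adjusted). Unequal differences were not shown for either pair of relatives.

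Odc1, Smox and Azin1 had larger estimates in replicates 7 to 10 than in replicates 1 to 6. For Odc1 1437711_x_at the first array set gave 0.22 (SE 0.11) and the other 0.55 (SE 0.093). The other Odc1 probe sets went from 0.17 (SE 0.15) to 0.72 (SE 0.094) and from 0.25 (SE 0.21) to 1.10 (SE 0.15). Smox 1424268_at went from 0.29 (SE 0.14) to 0.87 (SE 0.15), Azin1 1450714_at from 0.042 (SE 0.14) to 0.51 (SE 0.16) and Azin1 1422702_at from 0.25 (SE 0.11) to 0.46 (SE 0.16).

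All 4 pairs of replicates 7 to 10 were higher in JA16 for each of these 6 probe sets, while among the first 6 pairs the sign was mixed for 5 of the 6. The interaction of treatment with array set was 0.85 (SE 0.31, unadjusted limma p = 0.0154) for Odc1 1427364_a_at, 0.55 (SE 0.21, unadjusted limma p = 0.0198) for Odc1 1438761_a_at and 0.58 (SE 0.24, unadjusted limma p = 0.0272) for Smox 1424268_at. Adjusted over all probe sets it passed for 0 of the 13 and for 0% of all in limma. At an unadjusted p below 0.05 there were 3 of the 13, beside 2.61% of all probe sets. All 3 were larger in replicates 7 to 10, beside 0.945% of all in that direction. The difference between array sets is therefore not established for any polyamine gene.

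Levels of 3 of the 4 antizyme probe sets differed between the array sets, and the exception was the dim Oaz2 1442541_at (log2 difference 0.069, SE 0.28, limma adjusted p = 0.865). Oaz2 1426764_at ran from 584 to 882 on the 12 arrays of replicates 1 to 6 and from 2018 to 2911 on the 8 arrays of replicates 7 to 10, with no overlap. This is a 3.51-fold higher level (log2 difference 1.81, SE 0.089, limma adjusted p = 7.87e-12, a test chosen after the values were seen). The brighter Oaz2 probe set, 1426763_at, went the other way, from 9720 ± 691 (SD, n = 12) to 8540 ± 757 (SD, n = 8), a log2 difference of -0.19 (SE 0.056, limma adjusted p = 0.00832). Oaz1 was also lower in replicates 7 to 10, from 15997 ± 1088 (SD, n = 12) to 12553 ± 1483 (SD, n = 8), with a log2 difference of -0.36 (SE 0.059, limma adjusted p = 3.98e-05).

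These were 3 of the 13 polyamine probe sets, beside 47.8% of all probe sets that differed between the sets. A difference of at least 3-fold between the sets in either direction, which Oaz2 1426764_at showed, was found in 2.52% of all. Over the 20 samples the 2 brighter Oaz2 probe sets correlated at -0.59, and their within-pair differences at -0.030. Each pair lies within 1 array set.

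**Figure D3:**
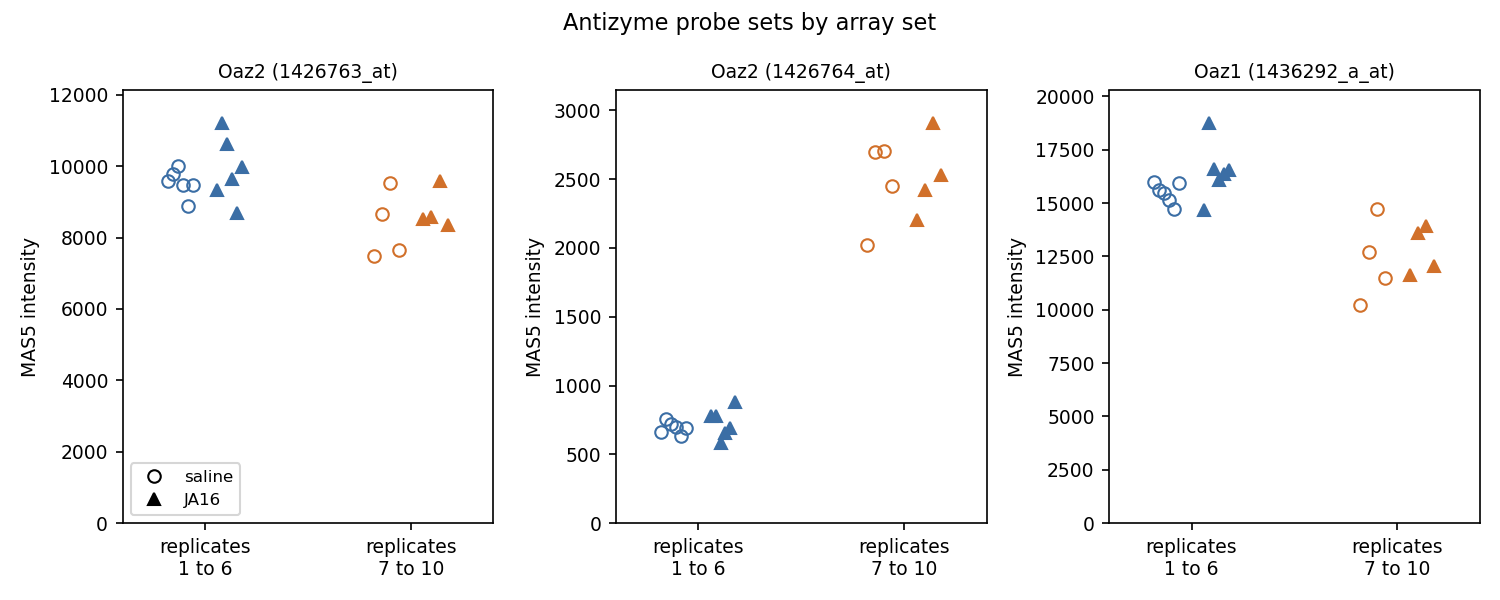
MAS5 intensity (vertical axes, from 0) of both brighter Oaz2 probe sets and of Oaz1 by array set, with saline samples as open circles and JA16 samples as filled triangles. Oaz2 1426764_at reaches at most 882 in replicates 1 to 6 and at least 2018 in replicates 7 to 10, while the others are slightly lower in replicates 7 to 10.

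Pairs with a larger Smox difference tended to have a larger Odc1 difference. Over the 10 pairs Pearson's r was 0.77 (permutation p = 0.0101, adjusted over 4 relations p = 0.0229) and Spearman's rho 0.68 (permutation p = 0.0356, adjusted p = 0.142). Without pairs 2 and 8, farthest from the median for Smox, r was 0.65 (exact permutation p = 0.0827), and within replicates 1 to 6 it was 0.71 (exact permutation p = 0.118). The relation thus passed the threshold by Pearson's r over all pairs and not by rank or in these subsets. Both genes were read from the same arrays and had larger differences in replicates 7 to 10. What share of all probe sets reach such an r was not tested.

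For Odc1 and Azin1 r was 0.76 (permutation p = 0.0114, adjusted p = 0.0229) and rho 0.50 (permutation p = 0.147, adjusted p = 0.293). These values are for the brightest Azin1 probe set, 1450714_at. On it r was 0.27 without pairs 1 and 2 (exact permutation p = 0.507) and 0.76 within replicates 1 to 6 (exact permutation p = 0.0833). The relation with the other tested Azin1 probe set, 1422702_at, was not tested, so the fall without pairs 1 and 2 is given for 1450714_at only. On 1422702_at the within-pair differences were 0.19 in pair 1 and 0.0027 in pair 2. In the remaining pairs they ran from 0.19 in pair 4 to 0.56 in pairs 6 and 7. Odc1 also had its lowest difference of those remaining pairs in pair 4 (0.23) and its highest in pairs 6 (0.60) and 7 (0.73). Smox and Sat1 gave r of 0.00092 (permutation p = 0.998) and rho of -0.13 (permutation p = 0.731). Odc1 and Oaz1 gave r of -0.0089 (permutation p = 0.981) and rho of 0.030 (permutation p = 0.946), and the adjusted p was 0.998 for both r. Without the 2 pairs farthest from the median, r was -0.53 (exact permutation p = 0.2) for Smox and Sat1 and 0.096 (exact permutation p = 0.824) for Odc1 and Oaz1. Within replicates 1 to 6 they were 0.61 (exact permutation p = 0.201) and -0.070 (exact permutation p = 0.926). Replicates 7 to 10 hold too few pairs for a value of their own.

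**Figure D4:**
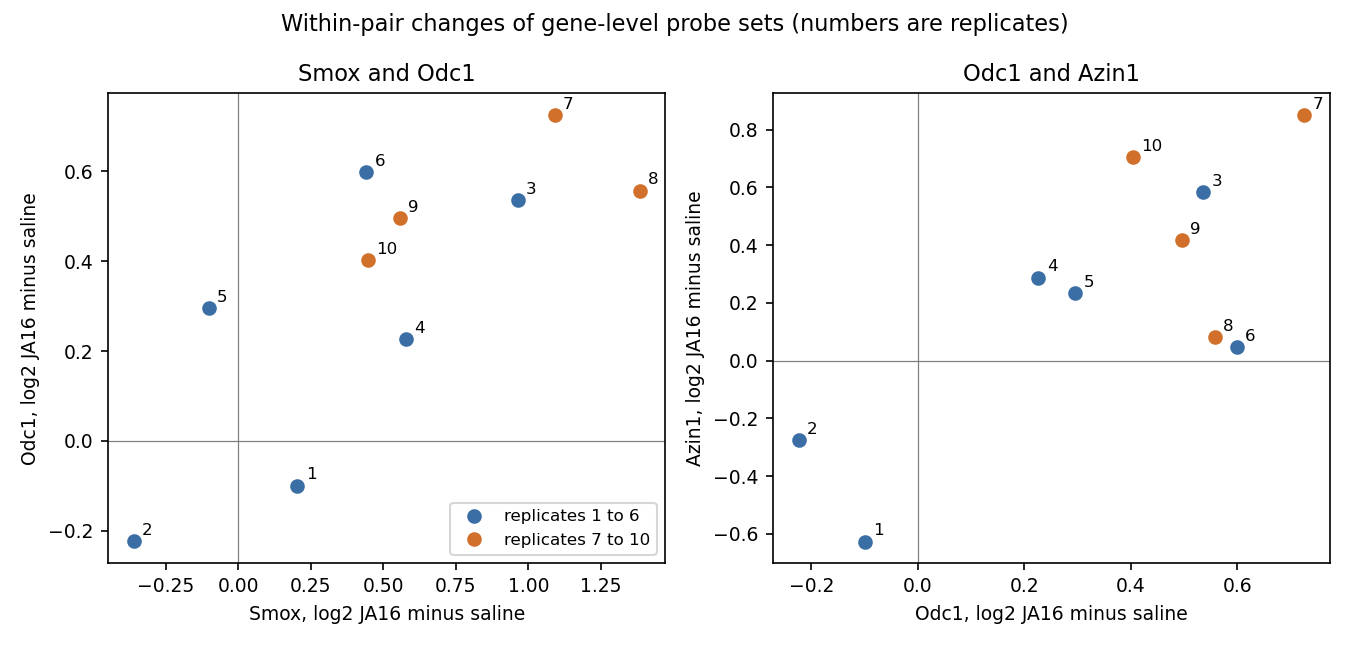
Within-pair log2 differences of JA16 minus saline for Smox (horizontal) against Odc1 (vertical) on the left and for Odc1 against Azin1 on the right, 1 point per pair, labelled by replicate number and coloured by array set. Pair 2 lies lowest for Smox and Odc1 in both plots, and pair 1 lies lowest for Azin1.

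The sequences upstream of Smox and Odc1 are shown because these genes had the largest estimates among the polyamine genes. They are from RefSeq's mouse assembly GRCm38.p6, on the plus strand, and end at the base before the annotated start of the gene. The Smox stretch is chr2:131491612-131491857 (246 bases) and the Odc1 stretch chr12:17544623-17544807 (185 bases). Capitals mark the GC box GGGCGG, the core of sites bound by Sp1 and related factors, or its reverse complement CCGCCC.
Smox: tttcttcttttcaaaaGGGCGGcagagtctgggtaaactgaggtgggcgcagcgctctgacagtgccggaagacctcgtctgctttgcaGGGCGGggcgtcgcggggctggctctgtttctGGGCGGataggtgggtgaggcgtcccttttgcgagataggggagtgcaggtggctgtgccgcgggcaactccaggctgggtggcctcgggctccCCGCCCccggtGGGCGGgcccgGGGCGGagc
Odc1: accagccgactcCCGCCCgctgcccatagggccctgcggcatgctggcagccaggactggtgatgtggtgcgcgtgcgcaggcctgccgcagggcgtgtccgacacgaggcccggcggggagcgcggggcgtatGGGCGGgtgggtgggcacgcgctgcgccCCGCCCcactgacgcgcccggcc

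The Smox stretch held 6 such GC boxes and the Odc1 stretch 3. In windows of 300 bases around annotated starts (250 before and 50 after), 35.7% of all 32851 windows held at least 1 GC box. Of the 9 windows listed for 7 polyamine genes, 7 held one, in Smox, Odc1, Oaz2, Sat1, Paox and Sms, and the Oaz1 window had none. The Paox windows overlap almost fully, so their boxes are counted in both. Polyamine windows with a GC box had 60.3% to 78% of bases as G or C, beside a median of 52.7% over all windows. The share of windows with a box at equal G and C content was not tested. The E-box CACGTG, a palindrome bound by Myc and its partners, was found in 1 polyamine window, that of Sms, beside 7.15% of all. The forkhead motif TGTTTAC (reverse complement GTAAACA), bound by FoxO factors, was found in 0 of the 9, beside 3.65% of all. All motifs were searched on both strands, and neither the E-box nor the forkhead motif is in the stretches shown, so no matches overlap between motifs there. A match is a description of letters in this window and not a bound site.

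The genes that feed, move or use polyamines were read from 5 lists. Of 38 listed genes, 24 had a tested probe set, 17 with higher and 7 with lower means in JA16, at a median log2 fold change of 0.049. Over all probe sets tested, 43.5% had higher means. Of the 24 genes, 0 passed the adjusted threshold in either direction, with or without the block. In precursor supply, 4 of 11 genes were tested and 3 were higher, among them Ahcy, which clears S-adenosylhomocysteine, at 0.15 (SE 0.072), while the arginase gene Arg2 was at -0.28 (SE 0.27). All 6 methionine salvage genes, which recycle the by-product of spermidine and spermine synthesis, were higher. At the brightest probe sets they ran from 0.030 (SE 0.058) for Adi1 to 0.15 (SE 0.079) for Apip, with 0 at an unadjusted limma p below 0.05. Mtap, the first enzyme of methionine salvage, was at 0.23 (SE 0.079) on 1451346_at and higher in 10 of 10 pairs. On its brightest probe set Mtap was at 0.093 (SE 0.080).

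Among 7 of 12 transport genes tested, 5 were higher. The cationic amino acid transporter gene Slc7a2, which brings in arginine and ornithine, went from 814 ± 151 to 1043 ± 215 (SD, n = 10 each) on 1422648_at, a log2 difference of 0.35 (SE 0.087, limma adjusted p = 0.127) with 9 of 10 pairs higher. Its other probe sets were at 0.44 (SE 0.19) on 1426008_a_at and 0.13 (SE 0.14) on the brightest, 1436555_at. Atp13a3, a polyamine transporter gene, was at -0.19 (SE 0.12). Of the 4 genes of hypusine, the spermidine-derived residue that eIF5A needs to act in translation, 3 were higher. Eif5a was at 0.21 (SE 0.076) on 1437859_x_at and 0.10 (SE 0.040) on its brightest probe set. The hydroxylase gene Dohh was at 0.21 (SE 0.098) on its brightest probe set and -0.093 (SE 0.14) on 1436402_at. The 3 other antizyme, acetyl and breakdown genes tested of 5 were lower, with the antizyme gene Oaz3 at -0.26 (SE 0.16) and Hdac10 at -0.18 (SE 0.13).

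By Pearson correlation of log2 intensity over the 20 samples, which share arrays and array sets, the genes closest to Smox were Fam131a (0.90), Tph1 (0.88), Slc38a4 (0.87), Tnfaip2 (0.87) and Emc7 (0.87). Those closest to Odc1 were Slc38a4 (0.87), Gpr146 (0.87), Tph1 (0.87), Msrb1 (0.85) and Fam131a (0.83). These are the highest of 19466 probe sets and such values are high by selection. Treatment group was not removed first, so this choice also favours genes that are higher in JA16, as Smox and Odc1 were. The differences and p-values of the chosen genes that follow are therefore descriptions. Slc38a4, an amino acid transporter gene, differed by 0.58 on the log2 scale (SE 0.11, limma adjusted p = 0.0401, and 0.439 without the block) and was higher in 10 of 10 pairs. Tnfaip2 was at 0.35 (SE 0.058, limma adjusted p = 0.0299, and 1.00 without the block), and Tph1, tryptophan hydroxylase, at 1.15 (SE 0.25, limma adjusted p = 0.0828).

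Most measured markers of other cells of muscle had a lower mean log2 intensity in JA16, taken at the brightest probe set of each gene. All 4 measured Schwann cell markers of 7 listed were lower in JA16, at a median of -0.69, with summed intensities from 2689 to 8250 in saline and from 1667 to 7591 in JA16 samples. All 6 fibroblast and tendon markers (median -0.20, sums of 26880 to 45080 and 15789 to 44320) and all 5 endothelial markers (median -0.20, sums of 3104 to 4881 and 2260 to 4018) were lower, and both measured adipocyte markers of 5 (median -0.47, sums of 280 to 1871 and 129 to 8120). The adipocyte markers had higher mean intensities in JA16 on the linear scale, 841 and 1092 for Adipoq and 195 and 252 for Cidec in saline and JA16, so their direction depends on the scale. Of 6 leukocyte markers measured of 7, 4 were lower (median -0.098, sums of 6272 to 23574 and 5307 to 19587), and the 1 blood marker measured of 5, Alas2, was at -0.096 (135 to 405 and 97.1 to 492). None passed in limma, 0 in every list, at an unadjusted p below 0.05 for 3 Schwann, 2 fibroblast and 1 endothelial gene, all lower, beside 9.29% of all probe sets that were lower at that level, and no measured marker was at 0 in any sample. Their part in the polyamine values was not tested.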

How the data were processed

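The deposited values are linear intensities per probe set and sample, made with MAS5 (version not named) per the submitters' processing notes. RNA was amplified and labelled with NuGEN kits, per the labels' protocols. How probes were masked and called is not given in the sources used here. The values show each array scaled to 1 trimmed mean (2% of probe sets left out at each end), which removes a factor common to an array but not differences in the shape of its distribution. The number of arrays (20) limits the precision.

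Of 45101 probe sets, 64 were controls, 34945 listed 1 gene, 932 several and 9160 none, by the platform annotation. Identifiers of 34741 single-gene probe sets matched the RefSeq table of GRCm38.p6. Values at or below 0 (5 in all) were set to 0.1 and log2 was taken. Single-gene probe sets with a mean log2 at or above the median of all (5.65, an intensity of 50.1) were tested, 19466 in all for 11200 genes, each gene represented where needed by its brightest tested probe set. JA16 and saline were compared in limma 3.58.1 (R 4.3.3; two-sided, intensity trend, Benjamini-Hochberg over 19466, threshold 0.05), with the replicate number as a block because the rule that chose the genes pairs same-numbered samples. After subtracting group means, samples sharing a number correlated at 0.38 to 0.79 in each of the 10 pairs. Samples of different numbers had a median of -0.11. The best match in the other group carried the same number for 6 of 10 saline and 5 of 10 JA16 samples. Array set was not removed before this, and each pair lies within 1 set. How far the array set adds to these correlations was not tested. Array numbers in the labels run saline then JA16 within each pair, so array order and treatment cannot be told apart.

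The fit was tested on simulated data with independent noise, in which 100 probe sets were changed by 0.5 on the log2 scale and 100 by 1. It called 38 of the 100 at 0.5 and 85 of the 100 at 1, and 9 unchanged probe sets. Most changes of 0.5 were thus missed there. The test of array-set levels and the other Azin1 probe set were chosen after the values were seen. Contrasts and correlations planned with Sms or Paox could not be run, and those run were adjusted over the 2 contrasts and 4 relations left. Genes named are the 9 chosen ones, the 2 genes with the smallest p in each pathway list, and the 5 genes most correlated with Smox and with Odc1. The genes, lists, block and array sets were chosen with earlier results of these data known. Python 3.11.15, numpy 2.4.6, pandas 2.3.3 and matplotlib 3.10.9 were used.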

Additional observations from a re-analysis of the deposited data

Results flagged for a closer look

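Of 26 groups of 10 samples (13 probe sets in both groups), 3 held a sample far from the others by Dixon's test, in which chance gives about 5% per group. For Smox 1424268_at, JA16 replicate 5 lay lowest in its group, at 6557.3 against 9393.9 for the next. Saline replicate 7 was the highest saline sample for Sat1, at 3290.1 against 1594.5, and it also had the highest array median, 77.1. JA16 replicate 7 was the highest JA16 sample for Azin1 1422702_at, at 1019.4 against 617.2.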

How the results depend on the processing

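Of 266 values of the polyamine probe sets under alternatives, 258 kept their direction and stayed short of the threshold, 7 turned and 1 passed. Turned were Oaz2 1426763_at with quantile normalization (-0.0062), Srm with medians centred (0.014), Oaz2 1426764_at with the beta-actin ratio as a covariate (-0.0058) and Oaz2 1442541_at in replicates 7 to 10 (-0.16). With 1 pair left out, Srm ran from -0.13 to 0.025 and Oaz2 1442541_at from -0.0080 to 0.26, and 0 to 1 polyamine probe sets passed (1 without pair 2). The number of all probe sets passing, 45, was 2 without the replicate block, 11 with medians centred, 2 without the intensity trend, 2 with the beta-actin covariate, and 0 in replicates 1 to 6 and 0 in replicates 7 to 10. It ran from 10 to 53 with 1 pair left out, and was 14, 12, 11, 11, 10, 13 and 14 without pairs 3 to 9 in turn. Without the replicate block no polyamine call changed. Oaz1 minus Oaz2 was -0.0086 in replicates 7 to 10. The correlations of Smox with Odc1 (0.71) and Odc1 with Azin1 (0.76) did not pass in replicates 1 to 6, where fewer pairs were used, and that of Smox with Sat1 was -0.038 with quantile normalization. With quantile normalization that of Odc1 with Oaz1 was -0.42 (permutation p = 0.31, adjusted over 4 relations), beside -0.0089 without it. The cause of the other changes was not tested. Background was not measured here, so how far it limits the dim probe sets Oaz2 1442541_at and Azin1 1430984_at is unknown.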
